A study of Mus musculus with 25 samples.

Results

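The 31 genes described here are cytoskeletal targets of the transcription factor SRF and its MRTF coactivators, picked by symbol from a written list that leaves out the actins and tropomyosins themselves. All 31 have a row among the 24015 genes of both expression tables, one for mouse basal cell carcinomas and one for the ASZ001 cell line. They are the calponin family genes Tagln, Tagln2, Cnn1, Cnn2 and Cnn3; the myosin II genes and regulators Myl9, Myh9, Cald1, Smtn and Nuak2; the focal adhesion and Ena/VASP genes Vcl, Tln1, Zyx, Tgfb1i1, Vasp and Enah; and the actin crosslinkers Flna, Flnc, Actn1, Actn4 and Lima1. The FHL, PDZ-LIM and CRP genes are Fhl1, Fhl2, Pdlim5, Pdlim7 and Csrp1. The remaining members are the actin turnover and nucleation genes Wdr1, Cap1 and Lmod1, and Thbs1 and Filip1l.

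MRTF-A and MRTF-B (Mkl1 and Mkl2 in the tables) bind monomeric actin, which holds them in the cytoplasm. When monomers are drawn into filaments, the coactivators are released, enter the nucleus and join SRF on CArG boxes near genes for actin, its binding proteins and focal adhesion components. Basal cell carcinoma is a skin tumour driven by Hedgehog signalling, and the series set out to relate this actin-regulated pathway to tumours that no longer respond to inhibitors of Smoothened (Smo), the membrane protein that carries the Hedgehog signal.

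RNA was sequenced from 4 resistant and 4 sensitive tumours. Both groups grew in C57BL6 mice that carried Ptch+/-, the K14 Cre-ER transgene and p53 fl/fl, and both groups of mice received a Smo inhibitor by oral gavage; the K14 promoter drives the Cre-ER recombinase in basal keratinocytes. The cell experiment used 3 libraries each of ASZ001 cells given CCG-1423, vismodegib or vehicle control. ASZ001 is 1 mouse basal cell carcinoma line, labelled as resistant, CCG-1423 is a small molecule described as an inhibitor of transcription through MRTF and SRF, and vismodegib is a Smo antagonist. The labels give no doses, no times and no word on which animals or cultures stand behind the replicates, so the spread that p-values measure here is that between libraries and may be technical.

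Reads counted at genes ranged from 17537094 to 20014426 in resistant tumours and from 8111252 to 14161398 in sensitive tumours, and from 30455530 to 44017757 in the cell libraries. All 8 keratinocyte markers on a list of other and labelled cell types (Krt5, Krt14 and Trp63 among them) were above 0 in every group of both tables. One tumour stood apart from its label's other libraries: on the first principal component of the tumour table, which held 65.9% of the variance, sensitive tumour 4 lay at 66.0, resistant tumours between 48.3 and 65.4, and sensitive tumours 1 to 3 between -98.1 and -88.7. Sensitive tumours 1 to 3 had 275 to 765 reads at each of 4 Y-linked genes, and sensitive tumour 4 and all 4 resistant tumours had 0. The members' counts and medians are therefore given with all 8 tumours and without sensitive tumour 4. Most changes of single members, and the calls in parts of the list or in other lists, are given only without it. Over all 8 tumours, no member and no gene of the other lists passed in the limma fit described below. Without sensitive tumour 4 the groups cannot be told apart from the presence of Y-linked reads. Sensitive tumour 4 was set aside on its values in this same table, so leaving it out tends to widen the difference between the groups. Adjusted p-values without it can be too small for that reason, and these calls are given as description.

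To show where SRF could bind, the RefSeq promoter windows of GRCm38.p6 (250 bases before to 50 after each start site) were searched on both strands for the CArG box, a run of A and T letters between CC and GG, each position counted once. RefSeq windows were matched for 27 member genes and not for Tagln, Tgfb1i1, Thbs1 and Nuak2. A box lay in a window of 7 of those 27 genes (25.9%), against 488 of all 27025 genes with a window (1.81%). The members were assembled as known SRF targets, so this share describes the list and is not independent of it. The following stretches, 5′ to 3′, have the CArG box in capitals and are shown because their genes include the members with the largest responses to CCG-1423 (Myl9, Filip1l), the 4 that hold an identical box, and Fhl2, which was higher with CCG-1423. Their coordinates are on GRCm38.p6, not on the mm9 build named in the submitters' processing notes.
Filip1l, chr16:57549145-57549224 (plus strand): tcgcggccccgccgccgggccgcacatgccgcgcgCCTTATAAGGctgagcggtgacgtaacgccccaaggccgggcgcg
Vcl, chr14:20929148-20929215 (plus strand): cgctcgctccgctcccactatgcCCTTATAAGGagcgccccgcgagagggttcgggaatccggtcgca
Lima1, chr15:99820152-99820231 (minus strand): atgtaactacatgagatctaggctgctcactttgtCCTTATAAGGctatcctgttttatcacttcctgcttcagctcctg
Cnn2, chr10:79988509-79988588 (plus strand): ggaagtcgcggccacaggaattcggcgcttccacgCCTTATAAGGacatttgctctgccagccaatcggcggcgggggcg
Myl9, chr2:156775268-156775347 (plus strand): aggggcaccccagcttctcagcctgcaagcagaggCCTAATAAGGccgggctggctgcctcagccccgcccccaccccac
Fhl2, chr1:43163962-43164027 (minus strand): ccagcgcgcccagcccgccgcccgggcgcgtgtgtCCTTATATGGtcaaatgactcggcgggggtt

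The boxes of Filip1l, Vcl, Lima1 and Cnn2 are the same 10 letters, a sequence found in 14 of all 32851 windows (0.0426%). Counted in bases from the annotated start site, the Filip1l box begins at -62, that of Vcl at -227, that of Lima1 at -47 and that of Cnn2 at -56. The box of Myl9 begins at -161 and that of Fhl2 at -31. Another Fhl2 start site holds a different box at -96, and the Fhl1 window holds one at -102. A match to letters is a description and says nothing of whether a factor binds there, and no match says only that these letters are not in this window.

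Most members that could be tested in ASZ001 cells were lower with CCG-1423. Of the 27 members that could be tested, 20 were lower with CCG-1423 than with vehicle (74.1%), 5 were higher (18.5%), and Smtn and Csrp1 did not pass; tests were limma fits on log2(normalized count + 1) with p adjusted by Benjamini-Hochberg over all 12775 genes tested and a threshold of 0.05. Among all genes tested, 42.6% were lower and 42.8% were higher. The median log2 fold change was -0.49 over all 31 members and -0.50 over the 27 tested, against 0.003 over all genes tested. At the same threshold and at least 2-fold, 6 members were lower (Myl9, Filip1l, Enah, Actn4, Wdr1 and Thbs1; 22.2% of those tested, against 15.3% of all genes) and 0 were higher, against 11.7% of all genes. Myl9 was under 10 normalized counts, the minimum for testing, in every CCG-1423 library and was tested only because of its vehicle and vismodegib values, so a fall was built into its entry; without it 19 of 26 members were lower (73.1%), 5 of them at least 2-fold (19.2%). The same limma fit at an unadjusted p of 0.05 or less, with no fold rule, called 5 members higher and 20 lower. Of all 12775 genes tested, 10975 had an unadjusted p below 0.05 in either direction. With edgeR and DESeq2 on the recovered reads, 0 members were 2-fold higher as well.

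**Figure D1:**
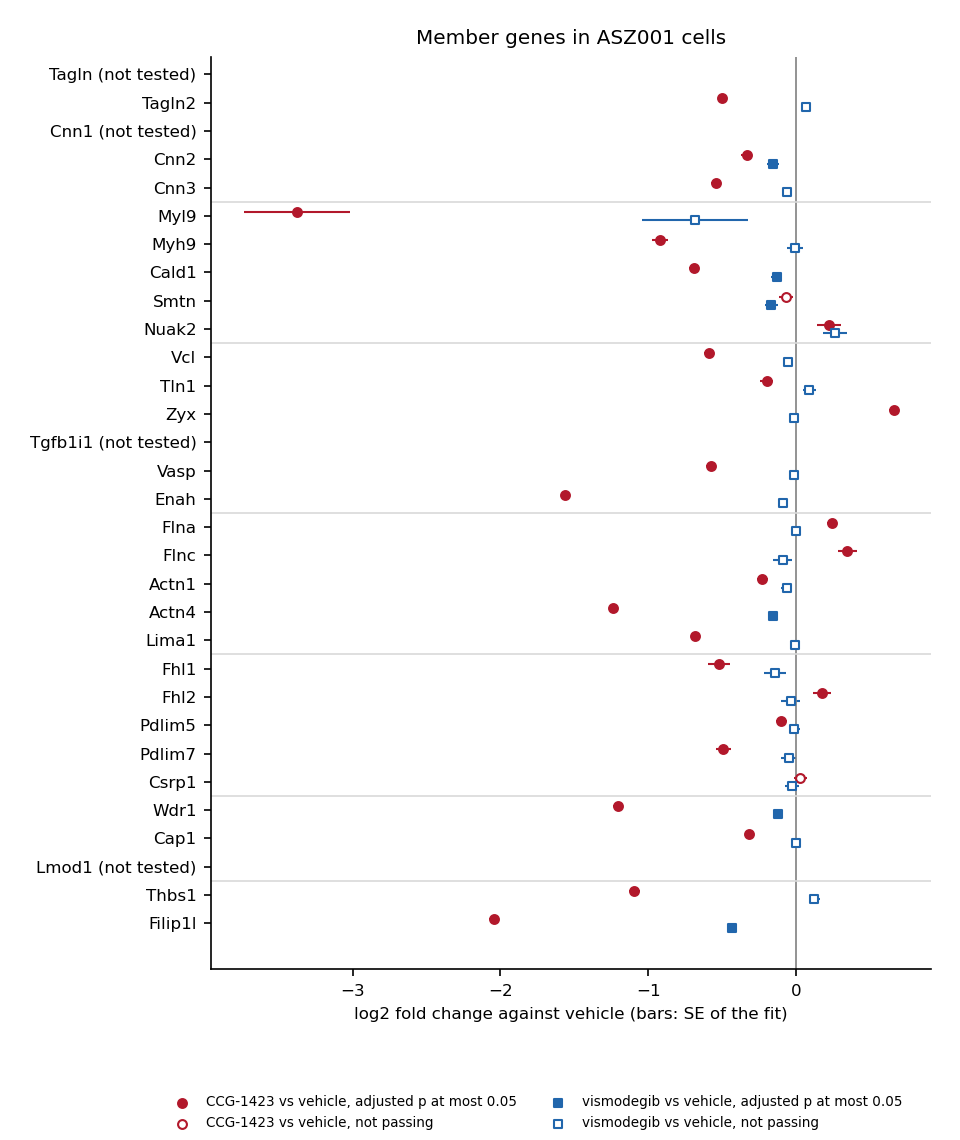
Log2 fold change of each member against vehicle in ASZ001 cells, CCG-1423 in red circles and vismodegib in blue squares, with the SE of the fit as bars, filled where the adjusted p was at most 0.05, and role groups separated by lines. With CCG-1423, 20 members lie left of 0 and pass, from Pdlim5 at -0.10 to Myl9 at -3.38, while the vismodegib points farthest from 0 are Myl9 at -0.69, Filip1l at -0.44 and Nuak2 at 0.26, of which Filip1l passed.

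Enah, which elongates actin filaments at the leading edge and at adhesions, had 9072, 8720.0 and 8883 normalized counts in CCG-1423 libraries, 24930.2, 24738 and 24333 in vismodegib libraries and 26459, 26003 and 26428 in vehicle libraries. The CCG-1423 libraries were far below the others and did not overlap them, with a log2 fold change against vehicle of -1.56 ± 0.03 (SE, adjusted p = 1.53e-16). Its relative Vasp averaged 2727 ± 74.5 normalized counts with CCG-1423 and 4064 ± 59.9 with vehicle (SD, n = 3 each), and also fell, by less (-0.58 ± 0.03). Vcl, which links talin to actin at adhesions and carries a CArG box, averaged 2636 ± 85.0 with CCG-1423 and 3975 ± 63.1 with vehicle, a log2 fold change of -0.59 ± 0.03. Tln1, which couples integrins to actin, changed by -0.20 ± 0.04.

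Zyx went the other way. This LIM protein, which gathers at strained adhesions and stress fibres and recruits Ena/VASP proteins, had 16913, 17545 and 17769.9 normalized counts in CCG-1423 libraries, 10832, 10883 and 10978 in vismodegib libraries and 11381, 10716 and 10929.6 in vehicle libraries. All CCG-1423 libraries were above all others, and the log2 fold change against vehicle was 0.66 ± 0.03 (adjusted p = 8.97e-12). Among adhesion genes, 4 of the 5 tested thus fell and 1 rose. Tgfb1i1 (Hic-5), the remaining adhesion member, had 6.06 to 12.3 normalized counts with CCG-1423, 5.59 to 11.2 with vismodegib and 4.53 to 7.35 with vehicle and was too low to be tested.

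Of the 5 myosin II genes and regulators, Myl9, Myh9 and Cald1 fell. Myl9, the regulatory light chain, was near the detection limit in these cells, with 1.12, 2.60 and 4.64 normalized counts in CCG-1423 libraries, 24.6, 22.2 and 18.4 in vismodegib libraries and 25.3, 41.5 and 41.9 in vehicle libraries. The CCG-1423 values lay near the level of 3 reads (2.60 to 3.35 normalized counts in those libraries), so its fitted log2 fold change of -3.38 ± 0.36 depends on the pseudocount. Summed over the 3 libraries, CCG-1423 cells had 9 reads and vehicle cells 107, and the depth-corrected ratio of vehicle over CCG-1423 was 12.2, with a 95% exact interval of 6.20 to 27.4 that covers counting error only.

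Myh9, the heavy chain of non-muscle myosin IIA, had 17925, 15491 and 14939 normalized counts in CCG-1423 libraries and 29659, 30030.4 and 31433 in vehicle libraries. Each CCG-1423 library was below each vehicle library, and the log2 fold change was -0.92 ± 0.05. Cald1 (caldesmon), which binds actin and restrains myosin, averaged 8205 ± 244 with CCG-1423 and 13254 ± 70.0 with vehicle (-0.69 ± 0.03). Nuak2, a kinase that promotes myosin light chain phosphorylation, had 413, 528 and 493 normalized counts with CCG-1423 and 394, 396 and 436 with vehicle, ranges that overlap, and passed as higher (0.22 ± 0.08, adjusted p = 0.0199). Smtn, which is named for smooth muscle stress fibres, changed by -0.07 ± 0.05 (adjusted p = 0.159).

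The calponin family split by expression. Tagln2, Cnn2 and Cnn3, the members that non-muscle cells express, all fell, with log2 fold changes of -0.50 ± 0.03, -0.34 ± 0.04 and -0.55 ± 0.03; Tagln2 averaged 9282 ± 259.9 normalized counts with CCG-1423 and 13116 ± 169.7 with vehicle. Their smooth muscle relatives were barely detected in any cell library: Tagln had 0.927 to 3.46 normalized counts with CCG-1423, 0 to 1.02 with vismodegib and 0 to 2.26 with vehicle. Cnn1 had 0 reads in all 3 CCG-1423 libraries, 0 to 6.71 normalized counts with vismodegib and 1.06 to 3.40 with vehicle. Outside the calponin family, Lmod1, which nucleates actin filaments in smooth muscle, reached 0.817 in 1 vehicle library and had 0 reads in the other 8 cell libraries. A count of 0 here allows up to 3 reads, so no difference in these genes was detectable at this depth.

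The crosslinkers divided between families. Actn4, a non-muscle alpha-actinin, had 20589, 20930.4 and 21065 normalized counts in CCG-1423 libraries, 43834, 45256 and 43566 in vismodegib libraries and 49142, 49396 and 49263 in vehicle libraries. The groups were separate, with CCG-1423 lowest, and the log2 fold change of CCG-1423 against vehicle was -1.24 ± 0.03 (adjusted p = 3.38e-15). Actn1 and Lima1 (EPLIN, which bundles filaments and slows their disassembly) also fell, by 0.23 and 0.68 on the log2 scale. Both filamins passed as higher: Flna averaged 15746 ± 204 normalized counts with CCG-1423 and 13326 ± 395 with vehicle (0.24 ± 0.03), and Flnc averaged 603 ± 42.3 with CCG-1423 and 474 ± 15.6 with vehicle (0.35 ± 0.06).

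Of the actin turnover genes, Wdr1, which helps cofilin take filaments apart, had 5530.3, 5842 and 5663 normalized counts in CCG-1423 libraries, 11989, 12185 and 12012 in vismodegib libraries and 13219.9, 12882 and 13224 in vehicle libraries. The CCG-1423 libraries were well below the others (-1.21 ± 0.03 against vehicle, adjusted p = 3.54e-15). Cap1, which recycles actin monomers, fell by less (-0.32 ± 0.03).

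Filip1l and Thbs1 had large changes and lie outside the actin machinery proper. Filip1l, a filamin A interacting protein, had 1628, 1736 and 1659 normalized counts in CCG-1423 libraries, 5106, 5269 and 4938 in vismodegib libraries and 6859, 6949 and 6921 in vehicle libraries. It fell with both compounds, by 2.04 with CCG-1423 and 0.44 with vismodegib on the log2 scale. Thbs1, the secreted matrix protein thrombospondin-1, had 18687, 20134 and 18718 normalized counts in CCG-1423 libraries, 44850.2, 45605 and 43312 in vismodegib libraries and 40572, 40588 and 41587 in vehicle libraries. The CCG-1423 libraries were below vehicle (-1.09 ± 0.04, adjusted p = 1.16e-13) and the vismodegib libraries above it without passing (0.12 ± 0.04, adjusted p = 0.0557).

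Of the 5 FHL, PDZ-LIM and CRP members, 3 fell and 1 rose with CCG-1423. Fhl1 and Pdlim7 fell (-0.52 ± 0.07 and -0.49 ± 0.05), Pdlim5 fell slightly (-0.10 ± 0.04; not passing without vehicle 3, adjusted p = 0.0680, or without CCG-1423 1, adjusted p = 0.0596), and Csrp1 did not pass (0.03 ± 0.05, adjusted p = 0.562). Fhl2, a LIM-only protein that itself binds SRF and whose promoter stretch is printed above, had 2689, 3407 and 3242 normalized counts with CCG-1423 and 2797, 2707 and 2738 with vehicle. The first of these CCG-1423 libraries lay below all vehicle libraries and the other two above them, and Fhl2 passed as higher (0.17 ± 0.06, adjusted p = 0.0173). Without vehicle 2, CCG-1423 2 or CCG-1423 3 both Fhl2 and Nuak2 failed and 3 members stayed higher; without vehicle 1 Nuak2 failed. Of the 7 members with a CArG box, 6 fell and 1 rose (median -0.59), against 42.6% lower and 42.8% higher among all genes tested. Myl9, whose fall was built into its entry, is 1 of these 6. Of the 18 tested members whose windows held none, 13 fell and 3 rose (median -0.40). In resistant tumours against sensitive tumours 1 to 3, the comparison described further on, 2 of the 7 with a box were higher and 1 lower (median 0.01), and 9 of the 20 without one were higher and 1 lower (median 0.66). Of all genes tested there, 20.6% were higher and 19.4% lower. The difference between genes with and without a box was not tested.

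**Figure D2:**
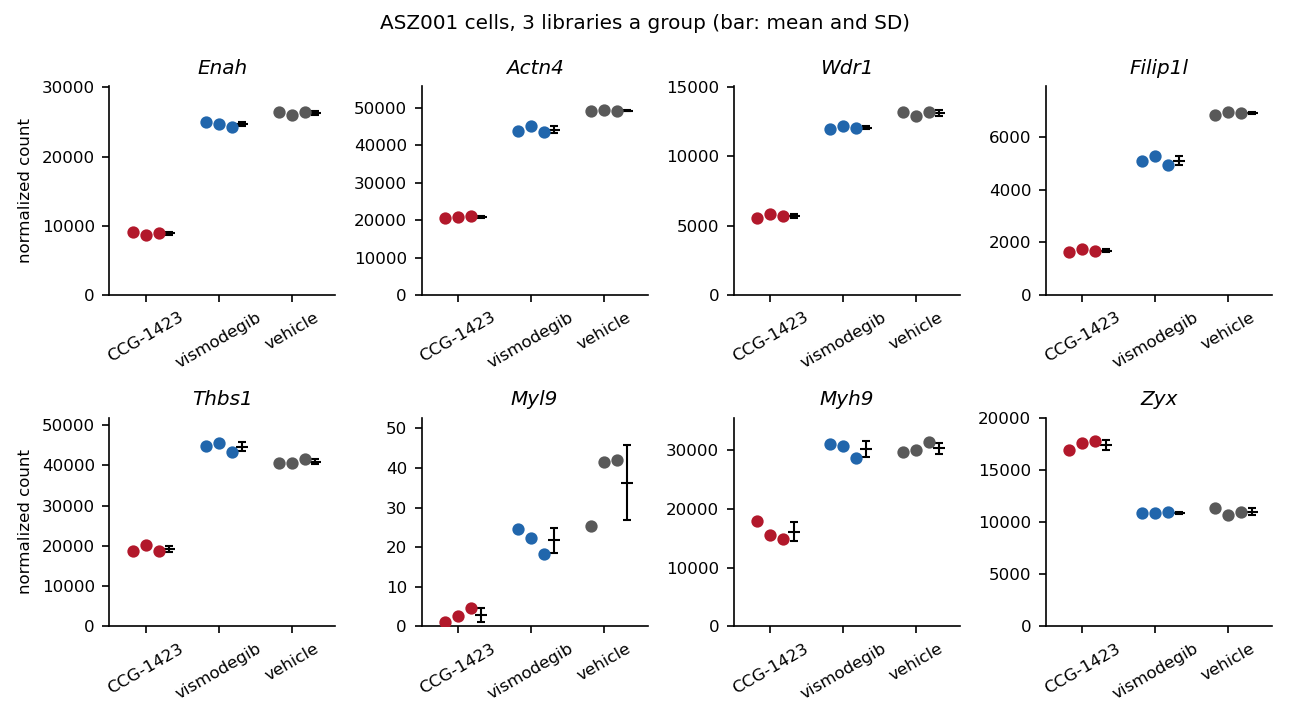
Normalized counts of 8 members in each ASZ001 library, CCG-1423 left, vismodegib in the middle and vehicle right, with the mean and SD beside the points; every axis starts at 0 and has its own scale. The CCG-1423 libraries lie lowest in Enah, Actn4, Wdr1, Filip1l, Thbs1, Myl9 and Myh9, and highest in Zyx.

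Keratinocyte markers fell as well. All 8 were lower with CCG-1423 than with vehicle, and their summed level was 335115 to 344310 normalized counts with CCG-1423, 1350760 to 1378820 with vismodegib and 1385960 to 1418560 with vehicle. Smooth muscle markers, of which 3 of 7 could be tested, summed to 368 to 491 with CCG-1423, 497 to 580 with vismodegib and 632 to 671 with vehicle; 2 of the 3 fell and 1 rose with CCG-1423. Other lists were low in these cells but also shifted: pericyte markers summed to 1718 to 2709.8 with CCG-1423, 762 to 793 with vismodegib and 709.8 to 793 with vehicle, macrophage markers to 778 to 942 with CCG-1423, 386 to 464 with vismodegib and 413 to 461 with vehicle, and endothelial markers to 270.4 to 319.9 with CCG-1423, 669 to 795 with vismodegib and 889.6 to 913 with vehicle. Fibroblast markers summed to 97.8 to 125 with CCG-1423, 167 to 185 with vismodegib and 176 to 205 with vehicle. Of the 2 pericyte and 2 macrophage markers that could be tested, 1 of each list rose and 1 of each fell with CCG-1423. The 2 endothelial markers that could be tested fell, and of 5 fibroblast markers 3 fell and 1 rose. The labels name 1 cell line, so the lists of other cell types are read as gene levels and not as numbers of such cells. Bulk RNA cannot tell fewer cells that express a gene from less RNA per cell. The part of these shifts in the members' values was not tested.

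Vismodegib moved few members and by little. Of the 27 tested, 6 were lower than with vehicle (22.2%, against 3.92% of all genes) and 0 were higher, against 1.58% of all genes. At the same adjusted threshold edgeR called 0 higher and DESeq2 called 1. At an unadjusted p of 0.05 or less the limma fit had 3 members higher (Tagln2, Nuak2 and Thbs1) and 7 lower. Of all 12775 genes tested, 2357 had an unadjusted p below 0.05 in either direction. No member changed 2-fold. The 6 were Filip1l (-0.44 ± 0.03, adjusted p = 8.30e-07), Actn4 (-0.16 ± 0.03), Smtn (-0.17 ± 0.05), Cnn2 (-0.16 ± 0.04), Cald1 (-0.13 ± 0.03) and Wdr1 (-0.12 ± 0.03). The median over the 31 members and over the 27 tested was -0.05, against 0.01 over all genes tested. The vismodegib and vehicle libraries did not overlap for 11 members with vismodegib lower (14.0% of all genes) and 3 with vismodegib higher (16.0% of all genes).

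These small differences changed with the scaling and with single libraries. Leaving out any 1 of the 6 libraries in turn left 2 or 3 members lower, Filip1l and Actn4 among them each time, and under scaling to total reads 1 member (Filip1l) was lower and 4 were higher (Tagln2, Nuak2, Tln1 and Thbs1). That scaling moved the median of all genes tested to 0.09 and the share of called genes that were higher to 90.5%, against 28.7% with the deposited scaling. Smtn had 2342, 2485 and 2444 normalized counts with vismodegib and 2748, 2738 and 2685 with vehicle, and Cnn2 had 1615, 1652 and 1600.2 with vismodegib and 1830.5, 1766 and 1832 with vehicle. In each the vismodegib libraries were lower, without overlap.

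CCG-1423 and vismodegib were also compared directly, since both comparisons above use the same 3 vehicle libraries. Of 27 members, 20 were lower with CCG-1423 than with vismodegib (74.1%, against 42.4% of all genes), 4 were higher (Zyx, Flnc, Flna and Fhl2, against 42.4% of all genes) and Smtn, Nuak2 and Csrp1 did not pass. Enah differed by -1.47 ± 0.03 on the log2 scale, Filip1l by -1.61 ± 0.03, Thbs1 by -1.22 ± 0.04, Wdr1 by -1.09 ± 0.03 and Actn4 by -1.08 ± 0.03. With Myl9 (-2.69 ± 0.36) these 6 were the members at least 2-fold lower, against 15.1% of all genes (5 of 26 without Myl9, which was tested only because of its vismodegib and vehicle values), and 0 were 2-fold higher, against 12.2% of all genes; edgeR and DESeq2 likewise called 0, and without the fold rule 5 members were higher in the limma fit at an unadjusted p of 0.05 or less. Of all 12775 genes tested there, 10903 had an unadjusted p below 0.05 in either direction, as had 25 of the 27 members. The median was -0.38 over all 31 members and -0.44 over the 27 tested, against 0.01 over all genes tested.

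Over all 8 tumours, no member passed between resistant and sensitive tumours. The limma fit over 15076 genes called 0 of 31 members higher and 0 lower, against 0.0332% and 0.0796% of all genes. At the adjusted threshold edgeR called 0 in either direction, and DESeq2 called Cnn3 higher and Csrp1 and Thbs1 lower. At an unadjusted p of 0.05 or less the limma fit had 8 of 31 members higher and 3 lower. Of all 15076 genes, 3789 had an unadjusted p below 0.05 in either direction. The members' median log2 fold change was 0.45, with 24 of 31 above 0, and that of all genes was 0.03. Resistant values lay above all sensitive values for Cnn3 and Pdlim5 (3.90% of all genes did so).

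Sensitive tumour 4 lay with the resistant tumours in most members. Its values lay within the range of the 4 resistant tumours for 22 of 31 members and within the range of sensitive tumours 1 to 3 for 6, and it was nearer the resistant mean for 26. Cald1, for example, had 12861, 10326, 12949.7 and 11978 normalized counts in resistant tumours, 11043 in sensitive tumour 4 and 5215, 5081 and 4008 in sensitive tumours 1 to 3. Csrp1, a LIM protein of the actin cytoskeleton, showed the opposite order with 379, 221, 355 and 494 in resistant tumours, 295 in sensitive tumour 4 and 1851, 1399 and 1548 in sensitive tumours 1 to 3. In both genes sensitive tumour 4 sat with the resistant tumours, as it did on the first principal component over all 15076 genes tested. The shares of all genes for the counts above were not taken, so those counts are not read as particular to the members.

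**Figure D3:**
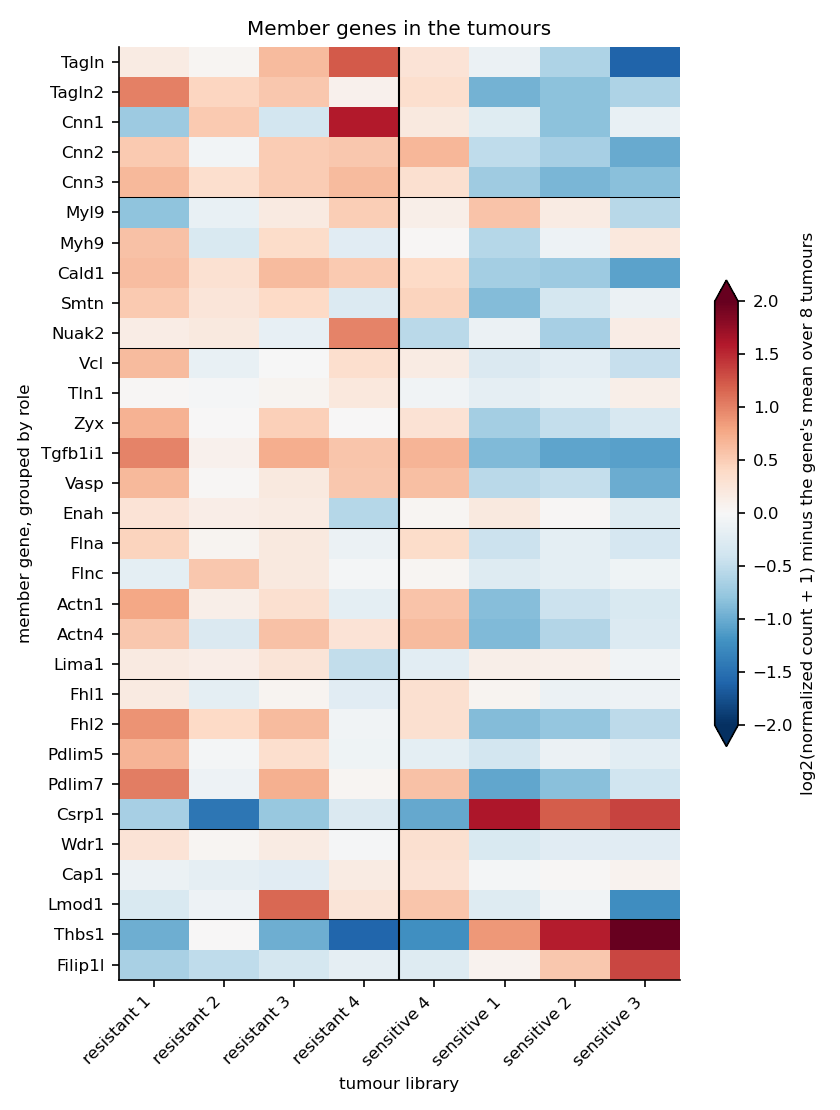
Each member's log2(normalized count + 1) minus its mean over the 8 tumours, resistant tumours left of the line and sensitive tumours right of it with sensitive tumour 4 first; red is above the mean and blue below, and lines separate role groups. The column of sensitive tumour 4 resembles the resistant columns in Cnn2, Tgfb1i1, Csrp1, Thbs1 and Filip1l, while sensitive tumours 1 to 3 are blue for most members and red for those last 3.

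Without sensitive tumour 4, 13 of 31 members were higher in resistant tumours (41.9%, against 20.6% of all 15479 genes tested) and 3 were lower (9.68%, against 19.4% of all genes). The 13 were Tagln, Tagln2, Cnn2, Cnn3, Cald1, Zyx, Tgfb1i1, Vasp, Actn1, Actn4, Fhl2, Pdlim7 and Wdr1, and the 3 were Csrp1, Thbs1 and Filip1l. At least 2-fold, 9 were higher (12.3% of all genes) and 3 lower (12.4% of all genes). The groups did not overlap for 15 members with resistant tumours higher (24.3% of all genes) and 3 with resistant tumours lower (23.3% of all genes). The members' median was 0.52, against 0.02 over all genes tested; scaling to total reads gave 0.38 for the members and -0.13 for all genes, and lowered the share of called genes that were higher to 40.3%, against 51.5%.

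The calponin family carried the largest share of these calls, with 4 of 5 higher. Cnn3 had 1366, 1092, 1229 and 1350.0 normalized counts in resistant tumours and 532, 458 and 485 in sensitive tumours 1 to 3, with 1087 in sensitive tumour 4. The resistant values were all above the others, and the log2 fold change without sensitive tumour 4 was 1.35 ± 0.14 (adjusted p = 3.23e-04), against 1.07 ± 0.27 with it (adjusted p = 0.138). Tagln2 had 9888, 6620.0, 7115 and 5188 in resistant tumours and 2535, 2765 and 3208 in sensitive tumours 1 to 3, with 6187 in sensitive tumour 4 (1.31 ± 0.21 without sensitive tumour 4). Cnn2 had 1466, 987, 1461 and 1492 in resistant tumours, 1633 in sensitive tumour 4 and 722, 644 and 508 in sensitive tumours 1 to 3. Sensitive tumour 4 exceeded every resistant value, and without it the Cnn2 change was 1.11 ± 0.20 (adjusted p = 0.00313).

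Tagln, near absent from the cell line, was plain in tumours: 762, 701, 1049.5 and 1589 normalized counts in resistant tumours, 826 in sensitive tumour 4 and 626, 442 and 224 in sensitive tumours 1 to 3. It passed only without sensitive tumour 4 (1.29 ± 0.39, adjusted p = 0.0278) and failed again when sensitive tumour 2, sensitive tumour 3 or resistant tumour 3 was also left out. Cnn1, the calponin of smooth muscle, ranged over 63.0 to 318 in resistant tumours and 59.3 to 121 in sensitive tumours and did not pass in either fit.

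Among adhesion genes, Tgfb1i1 had 1686, 895, 1398 and 1245 normalized counts in resistant tumours, 1359 in sensitive tumour 4 and 458, 406 and 399 in sensitive tumours 1 to 3. Sensitive tumours 1 to 3 were well below all others, and the log2 fold change without sensitive tumour 4 was 1.60 ± 0.21 (adjusted p = 8.64e-04), the largest rise of any member. Vasp had 765, 496, 564 and 712 in resistant tumours, 744 in sensitive tumour 4 and 338, 352 and 245 in sensitive tumours 1 to 3 (1.02 ± 0.21 without sensitive tumour 4). Zyx had 3678, 2296, 3172 and 2295 in resistant tumours, 2799 in sensitive tumour 4 and 1426, 1638 and 1825 in sensitive tumours 1 to 3 (0.79 ± 0.20 without sensitive tumour 4). Both rose when sensitive tumour 4 was left out. Vcl (0.52 ± 0.20, adjusted p = 0.0638), Tln1 and Enah did not pass, and Enah had 2727 to 4909 in resistant tumours and 3403 to 4623 in sensitive tumours 1 to 3.

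Cald1 was the one myosin regulator to rise (1.34 ± 0.15, adjusted p = 5.16e-04 without sensitive tumour 4). Myl9, the member with the largest response to CCG-1423 in cells, had 868, 1367, 1718 and 2136 normalized counts in resistant tumours and 2251, 1712, 1037 and 1644 in sensitive tumours 1 to 4. Its groups overlapped, and its log2 fold changes were -0.15 ± 0.32 with sensitive tumour 4 and -0.14 ± 0.34 without. Myh9, Smtn and Nuak2 also failed to pass, with log2 fold changes without sensitive tumour 4 of 0.26 ± 0.27, 0.66 ± 0.24 and 0.50 ± 0.33.

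The crosslinkers Actn1 and Actn4 rose without sensitive tumour 4 (0.78 ± 0.24 and 0.86 ± 0.24). Actn1 had 5849, 3739.6, 4304 and 3014 normalized counts in resistant tumours, 5088 in sensitive tumour 4 and 1898, 2562 and 2779 in sensitive tumours 1 to 3. Actn4 had 13346, 7512, 13719.5 and 11042 in resistant tumours, 14203 in sensitive tumour 4 and 4959, 6129 and 7598 in sensitive tumours 1 to 3, with a small overlap. Flna had 19067, 14657, 16082 and 12973 in resistant tumours, 18148 in sensitive tumour 4 and 10387, 12279 and 11162 in sensitive tumours 1 to 3, and missed the threshold without sensitive tumour 4 (adjusted p = 0.0554). The highest Actn4 value of all 8 tumours was that of sensitive tumour 4. Flnc and Lima1 did not pass (0.30 ± 0.19 and -0.03 ± 0.20).

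Of the FHL, PDZ-LIM and CRP members, Fhl2 had 791, 561, 659 and 407 normalized counts in resistant tumours, 533 in sensitive tumour 4 and 233, 249 and 296 in sensitive tumours 1 to 3. Pdlim7, an adaptor with a PDZ and several LIM domains, had 1765, 807, 1432 and 895 in resistant tumours, 1311 in sensitive tumour 4 and 425, 489 and 659 in sensitive tumours 1 to 3. Both rose without sensitive tumour 4 (1.18 ± 0.23 and 1.17 ± 0.29) and sensitive tumour 4 lay inside the resistant range of each. Pdlim5 had 6325, 3839, 4969 and 3719 in resistant tumours and 3056, 3616, 3388 and 3459 in sensitive tumours 1 to 4, and Vcl had 5330.2, 3108, 3426 and 4365 in resistant tumours and 2809.7, 2989.7, 2501 and 3866 in sensitive tumours 1 to 4. Pdlim5 was higher in each resistant tumour than in any sensitive one. It did not pass in the limma fit with sensitive tumour 4 (0.45 ± 0.19, adjusted p = 0.190) or without it (0.46 ± 0.20, adjusted p = 0.0980). Fhl1 did not pass either (0.01 ± 0.15 without sensitive tumour 4).

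Without sensitive tumour 4, Csrp1, Thbs1 and Filip1l were lower in resistant tumours. Csrp1 changed by -2.19 ± 0.26 without sensitive tumour 4 (adjusted p = 5.50e-04) and -1.58 ± 0.55 with it (adjusted p = 0.153). Thbs1 had 4435, 8749, 4435 and 2881 normalized counts in resistant tumours, 3716 in sensitive tumour 4 and 15889, 25751 and 43177 in sensitive tumours 1 to 3 (-2.46 ± 0.42 without sensitive tumour 4). Filip1l had 3212, 3529, 3962 and 4434 in resistant tumours, 4196 in sensitive tumour 4 and 5298, 7281 and 12761 in sensitive tumours 1 to 3 (-1.07 ± 0.28 without sensitive tumour 4). For all 3 genes sensitive tumours 1 to 3 were above every other tumour. Wdr1 had 2344, 1984, 2165 and 1905 in resistant tumours, 2406 in sensitive tumour 4 and 1573, 1649 and 1646 in sensitive tumours 1 to 3, and its small rise (0.37 ± 0.12, adjusted p = 0.0448) was lost when sensitive tumour 1, 2 or 3 or resistant tumour 1, 2 or 3 was also left out. Cap1 and Lmod1 did not pass.

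**Figure D4:**
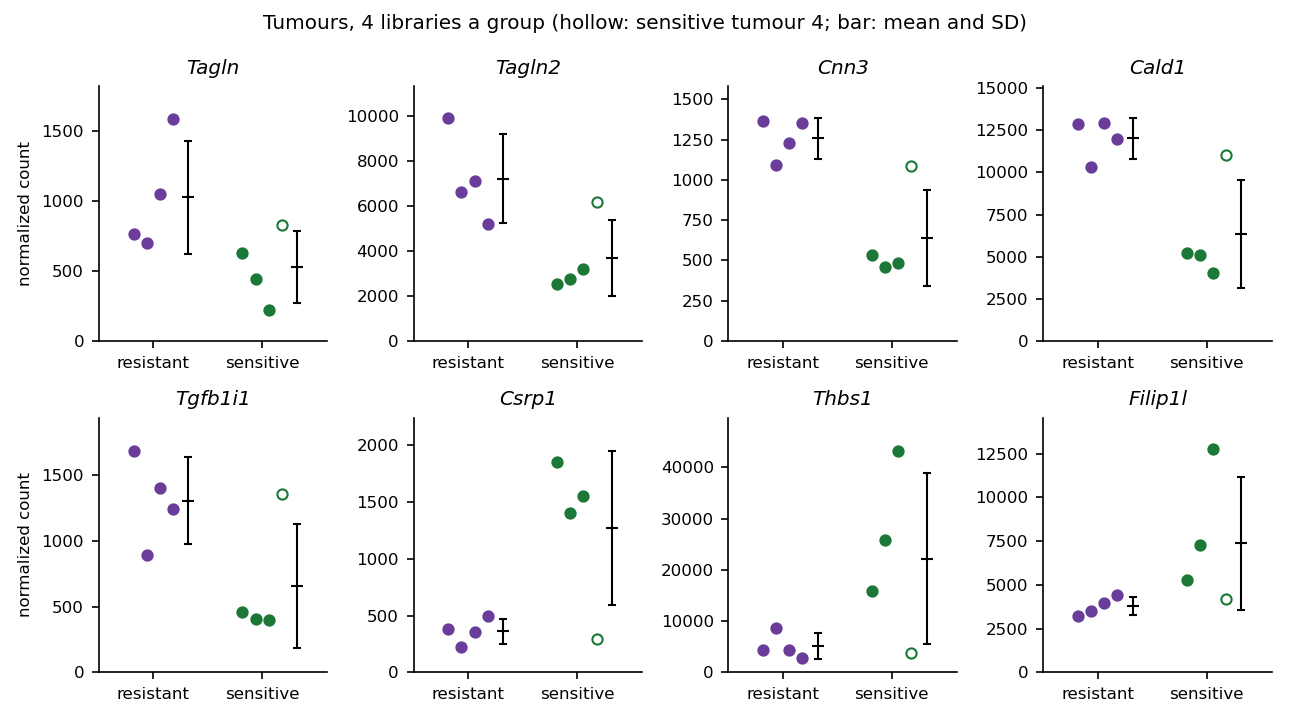
Normalized counts of 8 members in each tumour, resistant left and sensitive right, with sensitive tumour 4 as a hollow point and the mean and SD of all 4 tumours of a group beside them; every axis starts at 0 and has its own scale. Sensitive tumour 4 lies among or next to the resistant tumours in all 8 panels, and the other sensitive tumours lie below them in the first 5 genes and above them in Csrp1, Thbs1 and Filip1l.

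The calls without sensitive tumour 4 also depended on single libraries. Leaving out sensitive tumour 1 as well left 8 members higher (Zyx, Actn1, Actn4, Pdlim7 and Wdr1 were lost), and leaving out sensitive tumour 2 left 7 (Tagln was lost too). Of the 16 calls, 10 held under all 15 alternatives tried: those of Tagln2, Cnn2, Cnn3, Cald1, Tgfb1i1, Vasp, Fhl2, Csrp1, Thbs1 and Filip1l.

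Summed levels of keratinocyte, pericyte and endothelial markers did not overlap between resistant tumours and sensitive tumours 1 to 3, while those of smooth muscle, fibroblast, skeletal muscle and macrophage markers did. Keratinocyte markers summed to 35532 to 90996 normalized counts in resistant tumours, 87673 in sensitive tumour 4 and 169563 to 237125 in sensitive tumours 1 to 3, and 6 of the 8 were lower in resistant tumours without sensitive tumour 4. Pericyte markers summed to 10833 to 15475 in resistant tumours, 16103 in sensitive tumour 4 and 4352 to 7300 in sensitive tumours 1 to 3, with 2 of 6 higher, and endothelial markers to 2036 to 3976 in resistant tumours, 2422 in sensitive tumour 4 and 1567 to 1806 in sensitive tumours 1 to 3, with 4 of 7 higher. Smooth muscle markers, whose cells express Tagln, Cnn1, Myl9, Smtn and Lmod1 strongly, summed to 4025 to 4769 in resistant tumours, 3381 in sensitive tumour 4 and 3461 to 4778 in sensitive tumours 1 to 3; 3 of 7 were higher and 3 lower. Fibroblast markers summed to 78907 to 119383 in resistant tumours, 96520 in sensitive tumour 4 and 66684 to 137664 in sensitive tumours 1 to 3, with 0 of 7 higher and 2 lower in the limma fit. Skeletal muscle markers summed to 481 to 10624 in resistant tumours, 732 in sensitive tumour 4 and 1299.5 to 1760.3 in sensitive tumours 1 to 3, and macrophage markers to 6557 to 79649.6 in resistant tumours, 13914 in sensitive tumour 4 and 11309 to 21993 in sensitive tumours 1 to 3. No marker of the 5 lists before these was at 0 in all libraries of a group. The part of these cells in the members' values was not tested.

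The responses in tumours and in cells were set side by side, since the libraries of these comparisons are separate. Of the 27 members tested in both tables, 9 were higher in resistant tumours than in sensitive tumours 1 to 3 and lower with CCG-1423 than with vehicle (33.3%, against 7.17% of the 12329 genes tested in both): Tagln2, Cnn2, Cnn3, Cald1, Vasp, Actn1, Actn4, Pdlim7 and Wdr1. Zyx and Fhl2 were higher in both (7.41%, against 10.9% of all genes), and Thbs1 and Filip1l were lower in both (7.41%, against 9.35% of all genes), so these last counts were no higher than the share of all genes. Members were called higher in those tumours (41.9%, against 20.6%) and lower with CCG-1423 (74.1%, against 42.6%) more often than all genes. A larger joint share can follow from those shares alone, and whether the responses are linked was not tested. With all 8 tumours no member passed in the tumours, so the count of 9 rests on leaving out sensitive tumour 4.

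**Figure D5:**
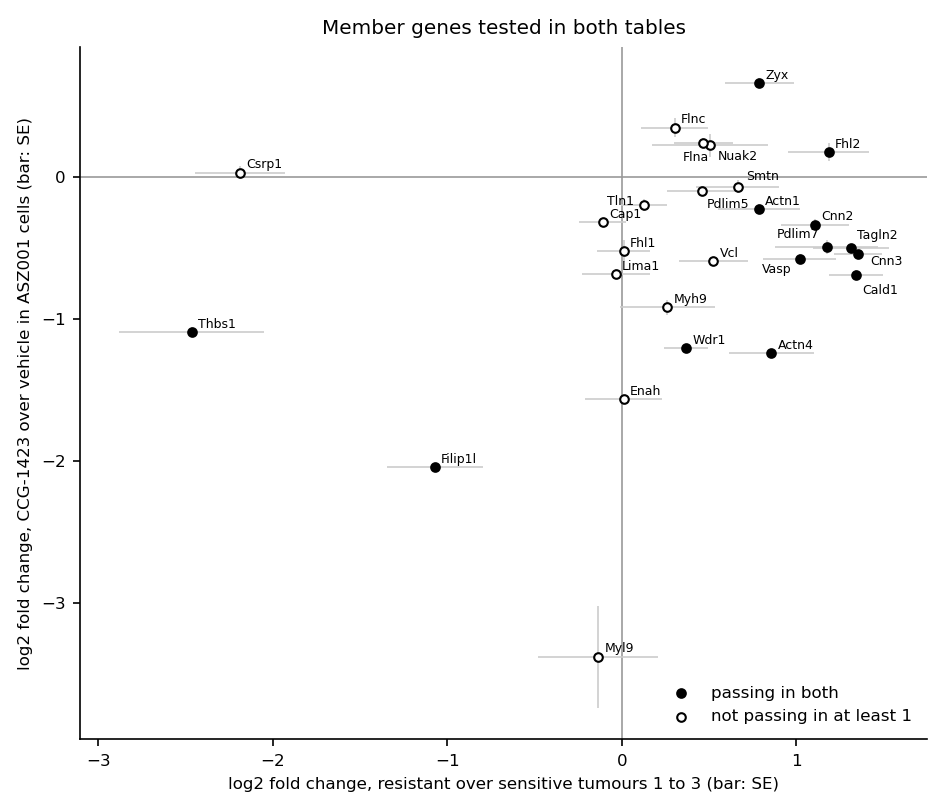
Log2 fold change of 27 members in resistant over sensitive tumours 1 to 3 (horizontal) and in CCG-1423 over vehicle in ASZ001 cells (vertical), with the SE of each as bars and filled points where both passed. The 9 members higher in resistant tumours and lower with CCG-1423 lie in the lower right, Zyx and Fhl2 in the upper right, and Thbs1 and Filip1l in the lower left.

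Other genes of the pathway were counted over whole lists, beside the shares of all genes called: 42.8% higher and 42.6% lower with CCG-1423, 1.58% higher and 3.92% lower with vismodegib, and 20.6% higher and 19.4% lower in resistant tumours without sensitive tumour 4. Srf itself had a log2 fold change of 0.11 ± 0.04 with CCG-1423 against vehicle, Mkl1 0.31 ± 0.03 and Mkl2 -0.22 ± 0.04, all 3 passing, and 0 of 3 passed with vismodegib at the adjusted threshold in the limma fit. In tumours without sensitive tumour 4, of the 4 genes for SRF and its coactivators only Mkl2 passed, with -1.21 ± 0.26. All 6 actin and tropomyosin genes that could be tested in cells fell with CCG-1423, Tpm1 by 2.22 and Tpm2 by 2.10 on the log2 scale; 2 of the 6 fell with vismodegib, and 4 of 8 rose in resistant tumours without sensitive tumour 4.

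The genes of the signalling upstream of actin did not move one way: 11 of 18 were higher and 7 lower with CCG-1423, among the higher ones Ssh1, a cofilin phosphatase (1.25 ± 0.05). With vismodegib 2 of 18 were higher, and in tumours without sensitive tumour 4, 9 were higher and 3 lower. A further list held genes for ternary complex factors together with immediate early genes, which SRF serves through those factors rather than MRTFs. Of its 11 genes tested with CCG-1423, 7 were higher and 3 lower, led by Ier2 (1.61 ± 0.04) and Egr1 (1.22 ± 0.06). With vismodegib 0 were higher and 1 lower, and 4 of 12 were higher and 2 lower in those tumours. Of the YAP-TEAD list, whose targets overlap with those of SRF, 6 of 11 were higher and 5 lower with CCG-1423, 0 were higher and 3 lower with vismodegib, and 6 of 12 were higher and 0 lower in those tumours. In that list the matrix protein gene Ctgf fell with CCG-1423 (-1.58 ± 0.10) and the transcription factor gene Tead1 rose (1.97 ± 0.06).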

How the data were processed

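The values are the authors' deposited normalized counts per gene (a signal scaled by a size factor per library), in one table for 8 tumours and one for 9 ASZ001 libraries. The submitters' processing notes name TopHat, DESeq and the mm9 build, with no version or role. Whole reads could be recovered for 100% of values within 0.01 read. Genes with at least 10 normalized counts in at least as many libraries as the smallest group were tested with limma 3.58.1 in R 4.3.3 on log2(value + 1), with a variance trend, so fold changes are on that scale and understate the change of low genes. The tumour fit held 8 tumours, or 7 without sensitive tumour 4, and the cell fit all 9 libraries. A call is a Benjamini-Hochberg adjusted p of at most 0.05 over all genes tested, and a stricter rule adds a change of at least 2-fold. edgeR 4.0.16 and DESeq2 1.42.0 on recovered reads, other pseudocounts, filters, scalings, a replicate block and left-out libraries were alternatives. The code was checked on data with known changes. A level of 3 reads equals 2.09 to 4.97 normalized counts in tumours and 2.45 to 3.40 in cells. Normalized counts are not per length, so levels of different genes are not compared.

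All 31 members are named; values per library are given for those at least 2-fold changed in a cell comparison or not overlapping between resistant tumours and sensitive tumours 1 to 3. Of other lists, up to 2 genes per direction of smallest p are named. The members and lists were chosen with earlier results of these data known. Sequences are from RefSeq (GRCm38.p6). The exome samples were not analysed here. One gene that the naming rule picked is not reported here.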

Additional observations from a re-analysis of the deposited data

Results flagged for a closer look

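Among the 62 groups of 4 tumours (31 members, each in resistant and in sensitive tumours), 4 had a tumour set far from the other 3 by Dixon's test at the 95% level, which flags about 1 in 20 groups by chance. In 3 of them that tumour was sensitive tumour 4, above its group: Cnn3 at 1087 normalized counts, with the other sensitive tumours at 458 to 532, Tgfb1i1 at 1359, with the others at 399 to 458, and Wdr1 at 2406, with the others at 1573 to 1649. In the remaining one, resistant tumour 2 had 987 normalized counts of Cnn2, below the 1461 to 1492 of the other resistant tumours. Sensitive tumour 4 already lay apart from its group on the first principal component, so the rate by chance is no measure for the sensitive groups. The share of all genes flagged is not given, so these flags are not read as particular to the members. What set these tumours apart was not tested.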

How the results depend on the processing

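Over all 8 tumours, DESeq2 called 1 member higher and 2 lower, the 2 lower ones at least 2-fold, against 0 in the limma fit. Leaving out each tumour in turn gave 0 to 13 members higher, 0 to 3 lower, 0 to 9 at least 2-fold higher and 0 to 3 at least 2-fold lower, and the calls came when sensitive tumour 4 was left out. The comparison without sensitive tumour 4 and its alternatives were chosen after seeing the data. There 7 to 15 members were higher when a further tumour was left out, and scaling to total reads gave a members' median of 0.38. For CCG-1423 against vehicle, left-out libraries gave 3 to 6 members higher and medians of -0.51 to -0.42. For vismodegib against vehicle they gave 2 to 3 lower. There scaling to total reads gave 4 higher, 1 lower and a median of 0.0304, fitting only those groups gave 4 higher, and DESeq2 and a robust variance gave 1 higher each. For CCG-1423 against vismodegib, scaling to total reads gave a median of -0.42, and left-out libraries gave -0.46 to -0.34. Called members that passed under all 15 alternatives were 22 of 25 for CCG-1423 against vehicle, 23 of 24 for CCG-1423 against vismodegib, 10 of 16 for the tumours without sensitive tumour 4 and 1 of 6 for vismodegib. No called member changed sign. The shares of all genes called under these alternatives are not given, so changes in these counts are not read as particular to the members. Causes were not tested.

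Replicate numbers only share a label: same-numbered tumours correlated at -0.15 to 0.12 in their deviations from group means, and cell libraries at -0.04 to 0.04. With the replicate block, 12 members were higher and 3 lower in tumours without sensitive tumour 4, 20 were lower and 5 higher with CCG-1423 than vehicle, and 5 were lower with vismodegib than vehicle. In cells, 5 members (Tagln, Cnn1, Lmod1, Tgfb1i1 and Myl9) were under 10 normalized counts in every library of at least 1 group, which limits what depth can show.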
